A study of Mus musculus with 30 samples.

Results

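The genes described here are 8 that are known to respond to glucocorticoids, Fkbp5, Sgk1, Tsc22d3, Ddit4, Cdkn1a, Nfkbia, Klf9 and Errfi1, together with Nr3c1, the gene of the glucocorticoid receptor. Every probe set whose symbol in the platform annotation was exactly one of these 9 was taken, which gave 25 of the 22626 probe sets that are not array controls. They were 7 for Klf9, 4 for Nfkbia, 3 each for Tsc22d3 and Nr3c1, 2 each for Fkbp5, Cdkn1a and Errfi1, and 1 each for Sgk1 and Ddit4. A total of 20 averaged 4 or more on the log2 scale over all arrays and were tested among the 12944 probe sets that passed this filter. The other 5 were below it, and each gene kept at least 1 tested probe set.

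Each of 30 male C57BL mice gave 1 Affymetrix MOE430A array of forebrain RNA, with no pooling, and the mice formed 3 groups of 10. One group drank clozapine, an atypical antipsychotic, at 12 mg/kg/day for 12 weeks, another drank haloperidol, a typical antipsychotic that blocks dopamine D2 receptors, at 1.6 mg/kg/day for 12 weeks, and the control group drank water with no drug for the same time. All mice were caged singly under 12 h of light and 12 h of dark, had their water intake and weight taken each week, and were killed by cervical dislocation. The labels give an age of 4 weeks, which cannot be the age after 12 weeks of treatment, name the hemisphere as right in some fields and left in another, and put the name clozapine beside the haloperidol dose in 1 protocol. The hour of killing, which bears on corticosterone in blood, is not given in the sources used here, and no corticosterone level was analysed here. The study set out to compare what the drugs do to brain expression over a long treatment.

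Corticosterone, the main glucocorticoid of the mouse, enters cells and binds the glucocorticoid receptor, which waits in the cytosol with HSP90 and its co-chaperones. The bound receptor moves to the nucleus, where it acts on genes at palindromic response elements or through other transcription factors. In brain, such target genes are used as readouts of stress hormone action in neurons, glia and blood vessels, and several of them feed back on the receptor or on the signalling routes that it restrains.

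The stretch upstream of Sgk1 is shown because it holds the spaced palindrome that defines the classical response element, and that upstream of Tsc22d3 because it holds a single arm of it. Sequences are from RefSeq promoter windows of GRCm38.p6 (250 bases before to 50 bases after a start site), written 5′ to 3′ on the strand of the gene, with the match in capitals. The Sgk1 stretch is chr10:21993640-21993889 on the plus strand, with the match from 189 to 175 bases before a start site. Capitals there mark the palindrome only, and a further single arm (TGTTCT) near the 5′ end of that stretch is in lower case. The Tsc22d3 stretch is chrX:140600675-140600734 on the minus strand, with the match from 185 to 180 bases before a start site.
Sgk1: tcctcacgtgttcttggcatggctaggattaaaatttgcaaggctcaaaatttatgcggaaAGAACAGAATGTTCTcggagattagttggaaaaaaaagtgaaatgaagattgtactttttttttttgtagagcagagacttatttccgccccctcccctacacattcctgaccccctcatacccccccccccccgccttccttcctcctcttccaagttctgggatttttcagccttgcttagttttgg
Tsc22d3: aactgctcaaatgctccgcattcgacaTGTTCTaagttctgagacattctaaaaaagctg
The motif searched was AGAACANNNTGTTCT, which reads the same on both strands, and it was found in 3 of 32851 windows (0.00913%), those of Sgk1, Acnat2 and Gm35041. A single arm, AGAACA or TGTTCT, lay in 6233 windows (19.0%), and every palindrome also holds it. For the 9 genes, windows of 1 chromosome were left out, though the counts over all 32851 windows include them. Of the 9 genes, 8 had windows among those kept, 17 in all. Nr3c1 had none there and was not searched. A single arm was in 4 of these 17 (23.5%), 3 of the 6 Sgk1 windows and 1 of the 3 Tsc22d3 windows, and the palindrome was in 1. These matches describe letters in a window and are not measured binding sites.

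Each cluster of arrays held more than 1 treatment. By correlation over the tested probe sets, cluster A held 11 arrays, cluster B 8 and cluster C 7, and control 1, clozapine 7, haloperidol 2 and haloperidol 7 stood alone. Cluster C held 5 clozapine, 2 control and 0 haloperidol arrays, while cluster B held 1 clozapine array (Fisher's exact test over the 3 clusters and 3 groups, p = 0.109). The clusters went partly with the sample numbers in the titles: all 11 arrays of A were numbered 1 to 6, 7 of the 8 in B were numbered 7 to 10, and C held 4 of the lower and 3 of the higher numbers. The labels do not say what the numbers stand for, and whether they mark a batch was not tested. Among the arrays numbered 7 to 10, all 4 controls lay in B, while clozapine 8, 9 and 10 lay in C and clozapine 7 stood alone, so clozapine and cluster cannot be told apart there. The 3′ minus 5′ signal of the array's RNA quality controls (Gapdh and Actb) was between 0.47 and 1.36 in the clusters and reached 4.09 in control 1 and 2.45 in haloperidol 7. The 4 forebrain markers that matched a probe set (Tbr1, Ppp1r1b, Camk2a and Neurod6) all had means above 4, and of 5 cerebellar markers Cbln1 and Calb1 did. In contrast, 0 of 3 blood and 0 of 4 pituitary markers did, where 3 of 5 listed blood genes matched a probe set. These low means do not hold for every array. Gh, a pituitary marker, reached 9.17 in a control, 6.63 in a clozapine and 5.85 in a haloperidol array. Alas2, a blood marker, reached 5.95 in a clozapine array. Over the lists of cell type and region markers, 0 of 41 tested genes were called by limma in any comparison, and at an unadjusted p under 0.05 there were 1 microglia marker lower with clozapine and 1 oligodendrocyte marker lower with haloperidol.

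In none of the 3 comparisons did any of the 20 tested probe sets pass an adjusted p of 0.05, in limma with Benjamini-Hochberg adjustment over all 12944 probe sets tested, and none of the 12944 did either (0% called). The smallest adjusted p was 0.9998 for clozapine against control, 0.9999 for haloperidol against control and 0.965 for clozapine against haloperidol. At an unadjusted p under 0.05, 1 of the 20 was past the threshold for clozapine against control (5%, beside 4.35% of all probe sets tested), 0 for haloperidol against control (beside 2.3%) and 0 for clozapine against haloperidol (beside 3.14%). The drug comparisons share the same 10 control arrays.

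With the numbers 1 to 6 against 7 to 10 as a block, a split made with the clusters known, the differences stayed as they were because each group holds both ranges in the same ratio. Of all 12944 probe sets, 0 were called in limma. At an unadjusted p under 0.05 there was 1 of the 20 in each comparison. Beside it were 794 of all 12944 for clozapine, 458 for haloperidol and 609 between the drugs. The 1 of the 20 was Nfkbia 1420089_at for clozapine, Cdkn1a 1424638_at for haloperidol and Nr3c1 1421867_at between the drugs. Within the arrays numbered 1 to 6, 0 probe sets were called in limma in any comparison, and the medians over the 20 were -0.02 for clozapine, 0.0055 for haloperidol and 0.04 between the drugs. Within those numbered 7 to 10, clozapine against control gave 1062 called of 12944 (8.2%) and 1 of the 20, Nfkbia 1420089_at, in the range where cluster and treatment go together. Clozapine against haloperidol gave 32 of 12944 and 0 of the 20 there, and haloperidol against control 0 of 12944. The medians over the 20 in that range were 0.08 for clozapine, 0.12 for haloperidol and 0.02 between the drugs. These fits within a range were chosen after seeing the data.

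Against control, 10 of the 20 were higher and 10 lower with clozapine, with a median log2 difference of 0.02, where the median over all probe sets tested was 0.02 and 55.3% were higher. With haloperidol 11 were higher and 9 lower, with a median of 0.02, where the median over all was -0.03 and 43.5% were higher. Between the drugs, 8 were higher with clozapine and 12 lower, with a median of -0.04, where the median over all was 0.05 and 60.7% were higher. These counts take probe sets of the same gene as separate. By the highest-mean tested probe set of each of the 9 genes, 2 were higher and 7 lower with clozapine than in control (median -0.0094). With haloperidol 5 were higher and 4 lower (median 0.0074). Between the drugs, 2 were higher with clozapine and 7 lower (median -0.06). Over the 20 probe sets, half-widths of the 95% confidence intervals had a median of 0.36 on the log2 scale, or 1.28-fold, and ran from 0.26 to 1.36. In tissue that holds many cell types, fewer cells that express a gene and less RNA per cell cannot be told apart.

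**Figure D1:**
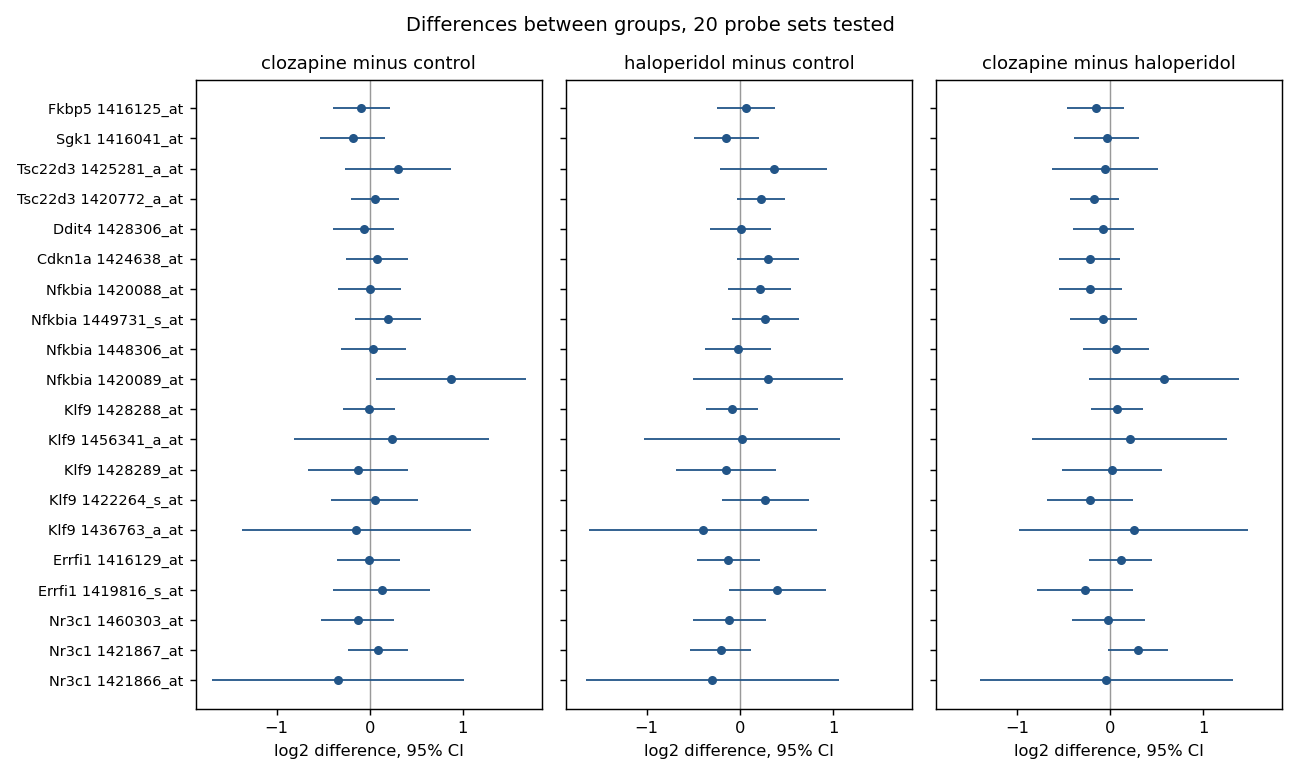
Log2 difference with its 95% confidence interval (limma, 10 arrays a group) for the 20 tested probe sets in each comparison. The interval for Nfkbia 1420089_at with clozapine against control lies above 0, all others include 0, and the widest belong to Klf9 1456341_a_at and 1436763_a_at and Nr3c1 1421866_at.

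Nr3c1, the receptor itself, was read by 3 probe sets. For 1460303_at, log2 values ran from 8.91 to 9.75 with a median of 9.09 in the control arrays, from 8.82 to 9.58 with a median of 8.997 in the clozapine arrays and from 7.71 to 10.03 with a median of 9.10 in the haloperidol arrays. The groups overlapped throughout, and the lowest array was haloperidol 2, which stood alone in the clustering. The log2 difference of clozapine from control was -0.13 ± 0.19 (SE, n = 10 a group), a ratio of 0.914 with a 95% confidence interval of 0.696 to 1.20. With haloperidol it was -0.11 ± 0.19 (SE), and 0.04 when haloperidol 2 was left out. For 1421867_at, log2 values ran from 8.51 to 9.76 with a median of 9.04 in the control arrays, from 8.81 to 9.70 with a median of 9.12 in the clozapine arrays and from 7.92 to 9.43 with a median of 9.01 in the haloperidol arrays. Here the drugs lay on opposite sides of the control mean, and the difference of clozapine from haloperidol, 0.30 ± 0.16 (SE, n = 10 a group), a ratio of 1.23 with a 95% confidence interval of 0.983 to 1.54, had an unadjusted p of 0.0686 in limma and an adjusted p of 0.965. The third probe set, 1421866_at, ran from 2.91 to 7.63 over all arrays, with differences from control of -0.34 ± 0.66 for clozapine and -0.30 ± 0.66 for haloperidol (SE), a spread taken up with the clusters below. The probe sets disagreed in sign for clozapine, with 1 above control and 2 below. For haloperidol all 3 lay below control, 1421867_at at -0.21 ± 0.16 (SE), though 1460303_at turned sign without haloperidol 2.

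Fkbp5 encodes FKBP51, an HSP90 co-chaperone that lowers the receptor's affinity for hormone and closes a short feedback loop, and it is a widely used readout of glucocorticoid action. For 1416125_at, log2 values ran from 6.87 to 8.13 with a median of 7.74 in the control arrays, from 7.29 to 7.81 with a median of 7.72 in the clozapine arrays and from 7.10 to 8.59 with a median of 7.78 in the haloperidol arrays. The clozapine arrays were the least spread, with an SD of 0.18 beside 0.39 in control and 0.38 in haloperidol, a difference in spread that was not tested. Clozapine differed from control by -0.09 ± 0.15 (SE, n = 10 a group), a ratio of 0.940 with a 95% confidence interval of 0.759 to 1.16. Haloperidol differed from control by 0.07 ± 0.15 (SE, n = 10 a group), a ratio of 1.05 with a 95% confidence interval of 0.845 to 1.30. Within the numbers 1 to 6 the clozapine difference was 0.07 ± 0.23 (SE, n = 6 a group), and within 7 to 10 it was -0.33 ± 0.13 (SE, n = 4 a group). Over all arrays both intervals include 1, and they leave room for a rise of up to 1.30-fold or a fall to 0.759 of control. The other probe set, 1448231_at, had group means of 2.92, 2.86 and 2.96 in control, clozapine and haloperidol and was not tested.

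Sgk1, a kinase that regulates ion channels and transporters, is induced by glucocorticoids and mineralocorticoids and carries the palindrome shown above in its upstream sequence. Log2 values ran from 8.15 to 9.09 with a median of 8.42 in the control arrays, from 7.76 to 8.86 with a median of 8.32 in the clozapine arrays and from 7.66 to 9.49 with a median of 8.36 in the haloperidol arrays. The highest array was haloperidol 7, followed by control 1, and both stood alone in the clustering and had the largest 3′ minus 5′ signals. The part of that signal in these values was not tested by itself, and a fit with it as a covariate is given with the alternatives below. The difference of clozapine from control was -0.18 ± 0.17 (SE, n = 10 a group), a ratio of 0.882 with a 95% confidence interval of 0.693 to 1.12. The haloperidol difference was -0.15 ± 0.17 (SE, n = 10 a group), a ratio of 0.903 with a 95% confidence interval of 0.710 to 1.15. Of the 10 arrays in each drug group, 3 with clozapine and 1 with haloperidol lay above the control mean. Clozapine 8, 9 and 10, at 8.86, 8.74 and 8.72, were the highest clozapine arrays, and the other 7 lay between 7.76 and 8.50. Within the numbers 1 to 6 the clozapine difference from control was -0.44 ± 0.19 (SE, n = 6 a group) and within 7 to 10 it was 0.21 ± 0.24 (SE, n = 4 a group), a turn of sign that was not tested.

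Tsc22d3 encodes GILZ, a leucine zipper protein that binds NF-κB and AP-1 and mediates part of the anti-inflammatory action of glucocorticoids. For 1425281_a_at, log2 values ran from 5.81 to 8.72 with a median of 8.52 in the control arrays, from 7.63 to 8.84 with a median of 8.46 in the clozapine arrays and from 7.69 to 9.23 with a median of 8.62 in the haloperidol arrays. Control 1 alone lay far below every other array. Relative to control, clozapine arrays differed by 0.30 ± 0.28 (SE, n = 10 a group), a ratio of 1.23 with a 95% confidence interval of 0.832 to 1.83. Relative to control, haloperidol arrays differed by 0.36 ± 0.28 (SE, n = 10 a group), a ratio of 1.28 with a 95% confidence interval of 0.866 to 1.91. Leaving out control 1 took the clozapine difference to 0.05 and the haloperidol difference to 0.10. For 1420772_a_at, log2 values ran from 7.25 to 7.84 with a median of 7.58 in the control arrays, from 7.37 to 8.05 with a median of 7.55 in the clozapine arrays and from 7.31 to 8.46 with a median of 7.71 in the haloperidol arrays. On this probe set 8 of 10 haloperidol arrays lay above the control mean, and haloperidol differed from control by 0.23 ± 0.13 (SE, n = 10 a group), a ratio of 1.17 with a 95% confidence interval of 0.977 to 1.40, with an unadjusted p of 0.0847 and an adjusted p of 0.9999 in limma. The clozapine difference was 0.06 ± 0.13 (SE). The third probe set, 1425557_x_at, had group means of 3.66, 3.76 and 3.75 in control, clozapine and haloperidol and was not tested.

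Ddit4 encodes REDD1, an inhibitor of mTORC1 that is raised by stress and glucocorticoids. For its single probe set, 1428306_at, log2 values ran from 6.89 to 7.83 with a median of 7.39 in the control arrays, from 6.71 to 7.68 with a median of 7.35 in the clozapine arrays and from 6.70 to 8.06 with a median of 7.27 in the haloperidol arrays. The groups overlapped over most of their range, and the highest values were in haloperidol. Clozapine differed from control by -0.06 ± 0.16 (SE, n = 10 a group), a ratio of 0.957 with a 95% confidence interval of 0.764 to 1.20. Haloperidol differed from control by 0.01 ± 0.16 (SE, n = 10 a group), a ratio of 1.01 with a 95% confidence interval of 0.803 to 1.26.

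Cdkn1a encodes p21, an inhibitor of cyclin-dependent kinases that glucocorticoids can raise in several cell types. For 1424638_at, log2 values ran from 5.85 to 6.85 with a median of 6.32 in the control arrays, from 6.01 to 6.72 with a median of 6.31 in the clozapine arrays and from 6.04 to 7.41 with a median of 6.55 in the haloperidol arrays. The haloperidol arrays reached higher than the others, with 7 of 10 above the control mean, while the groups still overlapped over most of their range. The haloperidol difference was 0.30 ± 0.16 (SE, n = 10 a group), a ratio of 1.23 with a 95% confidence interval of 0.978 to 1.55, with an unadjusted p of 0.0756 and an adjusted p of 0.9999 in limma. The difference of clozapine from control was 0.08 ± 0.16 (SE, n = 10 a group), a ratio of 1.06 with a 95% confidence interval of 0.839 to 1.33. Cluster A, which held 5 of the 10 haloperidol arrays, had a mean of 6.68 and cluster B 6.10, and within those clusters the haloperidol difference from control was 0.29 and 0.14. The other probe set, 1421679_a_at, had group means between 1.56 and 1.58 and was not tested.

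Nfkbia encodes IκBα, which holds NF-κB in the cytosol and is induced both by glucocorticoids and by NF-κB. For 1420088_at, log2 values ran from 8.84 to 9.60 with a median of 9.08 in the control arrays, from 8.42 to 9.78 with a median of 9.33 in the clozapine arrays and from 8.81 to 9.97 with a median of 9.50 in the haloperidol arrays. The groups overlapped, and the clozapine arrays were the most spread. Relative to control, clozapine arrays differed by -0.0017 ± 0.16 (SE, n = 10 a group), a ratio of 0.999 with a 95% confidence interval of 0.791 to 1.26. Relative to control, haloperidol arrays differed by 0.21 ± 0.16 (SE, n = 10 a group), a ratio of 1.16 with a 95% confidence interval of 0.917 to 1.46. For 1449731_s_at the differences were 0.20 ± 0.18 for clozapine and 0.27 ± 0.18 for haloperidol (SE), with 7 and 9 of 10 arrays above the control mean. For 1448306_at they were 0.04 ± 0.17 and -0.02 ± 0.17 (SE).

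The remaining Nfkbia probe set, 1420089_at, was the 1 of the 20 past an unadjusted p of 0.05, and it rested on 3 arrays. Log2 values ran from 3.74 to 5.45 with a median of 4.13 in the control arrays, from 3.97 to 7.43 with a median of 4.37 in the clozapine arrays and from 3.91 to 6.43 with a median of 4.23 in the haloperidol arrays. Clozapine 8, 9 and 10 had 6.73, 7.43 and 6.58, above each of the other 27 arrays, of which haloperidol 7 was the highest at 6.43. The other 7 clozapine arrays lay between 3.97 and 4.91, inside the control range of 3.74 to 5.45. Clozapine differed from control by 0.88 ± 0.39 (SE, n = 10 a group), a ratio of 1.83 with a 95% confidence interval of 1.05 to 3.21, with an unadjusted p of 0.0342 and an adjusted p of 0.9998 in limma. Without clozapine 8, 9 and 10 the difference was 0.10 ± 0.28 (SE). Within the numbers 1 to 6 it was -0.14 ± 0.25 (SE, n = 6 a group) and within 7 to 10 it was 2.40 ± 0.66 (SE, n = 4 a group; adjusted p = 0.0485 in limma). Within clusters it was -0.38 in A, 0.12 in B with a single clozapine array, and 1.77 in C, which held these 3 arrays. With arrays weighted by their fit (arrayWeights in limma), which gave haloperidol 2 a weight of 0.144 and controls 7 to 10 weights of 3.44 to 4.86, the difference was 1.21 ± 0.33 (SE) with an adjusted p of 0.0191, while 1731 of all 12944 probe sets (13.4%) were then called. The other Nfkbia probe sets did not share the pattern, since on none of them did all 3 arrays lie above the other clozapine arrays.

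The same 3 arrays were also high for some Klf9 probe sets. Besides Sgk1, they lay above the other 7 clozapine arrays for Klf9 1456341_a_at, at 11.64, 11.90 and 11.31 beside 8.74 to 11.05, and for Klf9 1428288_at, at 11.30, 11.28 and 11.32 beside 10.84 to 11.18. They lay below the other 7 for Fkbp5 1416125_at, at 7.29, 7.44 and 7.48 beside 7.54 to 7.81. All 3 arrays belong to cluster C, and their 3′ minus 5′ signals were 1.22, 0.82 and 1.05. These arrays were singled out after their values were seen, and no test was made of them. The share of all probe sets that set these 3 arrays apart was not taken, so the splits cannot be called particular to these genes.

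**Figure D2:**
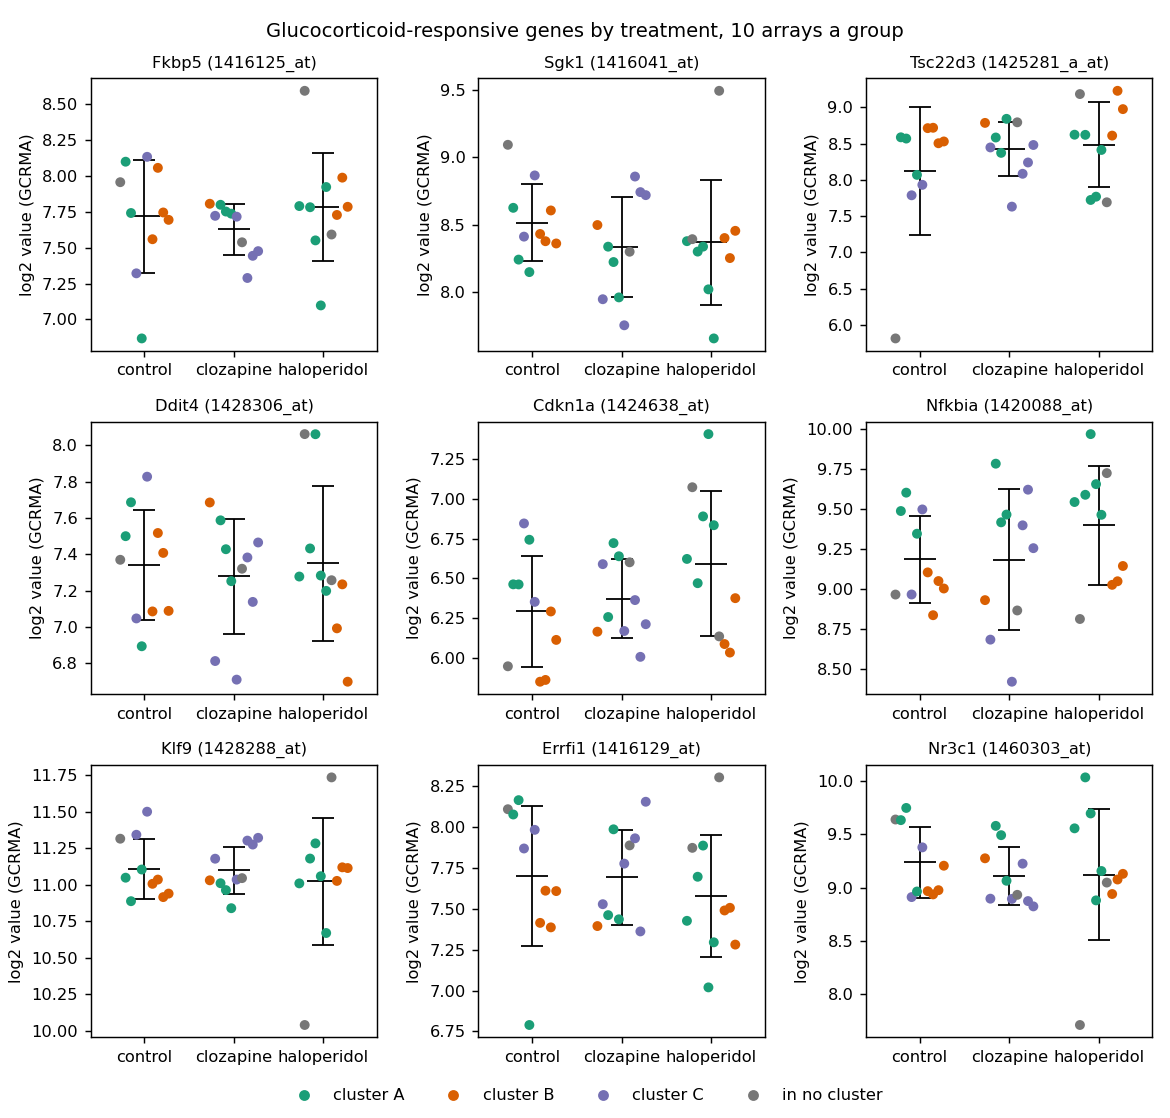
Log2 value of every array, by treatment, for the brightest tested probe set of each gene. Bars show mean ± SD of 10 arrays and colours show the array cluster; the groups overlap in all 9 panels, with control 1 lowest for Tsc22d3 at 5.81 and haloperidol 7 highest for Sgk1 at 9.49.

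Klf9 encodes a zinc finger transcription factor that glucocorticoids and thyroid hormone raise in neurons, and 5 of its 7 probe sets were tested. For 1428288_at, log2 values ran from 10.89 to 11.50 with a median of 11.04 in the control arrays, from 10.84 to 11.32 with a median of 11.04 in the clozapine arrays and from 10.04 to 11.74 with a median of 11.09 in the haloperidol arrays. Both extremes were haloperidol arrays that stood alone in the clustering, haloperidol 2 the lowest and haloperidol 7 the highest. The difference of clozapine from control was -0.01 ± 0.14 (SE, n = 10 a group), a ratio of 0.994 with a 95% confidence interval of 0.819 to 1.20. Haloperidol differed from control by -0.09 ± 0.14 (SE, n = 10 a group), a ratio of 0.942 with a 95% confidence interval of 0.777 to 1.14, and by 0.02 on the log2 scale without haloperidol 2. Over the 5 tested probe sets the clozapine differences ran from -0.14 to 0.24 and the haloperidol differences from -0.40 to 0.27, with signs on both sides of 0 in each comparison. The SE was 0.14 for 1428288_at, 0.23 for 1422264_s_at, 0.26 for 1428289_at, 0.51 for 1456341_a_at and 0.60 for 1436763_a_at.

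Errfi1 encodes MIG6, a feedback inhibitor of EGF receptor signalling that glucocorticoids induce. For 1416129_at, log2 values ran from 6.79 to 8.17 with a median of 7.74 in the control arrays, from 7.36 to 8.16 with a median of 7.65 in the clozapine arrays and from 7.02 to 8.31 with a median of 7.50 in the haloperidol arrays. The groups overlapped throughout, and the lowest array was a control. Relative to control, clozapine arrays differed by -0.01 ± 0.17 (SE, n = 10 a group), a ratio of 0.994 with a 95% confidence interval of 0.786 to 1.26. The haloperidol difference was -0.12 ± 0.17 (SE, n = 10 a group), a ratio of 0.918 with a 95% confidence interval of 0.726 to 1.16. For 1419816_s_at, log2 values ran from 5.38 to 7.23 with a median of 6.88 in the control arrays, from 4.99 to 7.27 with a median of 6.96 in the clozapine arrays and from 6.39 to 7.75 with a median of 7.15 in the haloperidol arrays. On that probe set clozapine 6 stood far below the other clozapine arrays, and 9 of the 10 clozapine arrays lay above the control mean. The differences were 0.13 ± 0.25 for clozapine and 0.40 ± 0.25 for haloperidol (SE), so the probe sets disagreed in sign for each drug.

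The array clusters separated some of these probe sets far more than treatment did. The clusters were built from all tested probe sets, so these values are a description with no test. Klf9 1436952_at lay between 4.60 and 6.20 in the 8 arrays of cluster B, between 2.05 and 3.12 in cluster A and between 2.08 and 2.96 in cluster C, and was not tested for treatment because its mean was below 4. Klf9 1436763_a_at had a mean of 5.43 ± 0.31 (SD, n = 11) in A, 8.29 ± 0.31 (SD, n = 8) in B and 7.02 ± 1.08 (SD, n = 7) in C. Klf9 1456341_a_at, at 8.97, 11.11 and 10.30, and Klf9 1428289_at, at 9.50, 10.60 and 10.12, had the same order of clusters. Nr3c1 1421866_at had a mean of 4.35 ± 0.94 (SD, n = 11) in A, 7.26 ± 0.24 (SD, n = 8) in B and 5.12 ± 0.99 (SD, n = 7) in C. Other probe sets of the same genes were much closer, with Klf9 1428288_at at 11.004, 11.02 and 11.28 and Nr3c1 1460303_at at 9.44, 9.06 and 8.999, so the probe sets of each gene disagreed about the clusters.

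Over the 20 tested probe sets, clusters held a median of 37.3% of the sum of squares over the 26 clustered arrays, and treatment groups 5.46% over the same arrays, beside 40.8% and 8.29% over all probe sets tested. Over all 30 arrays the groups held 4.24%, beside 4.74%. The cluster means spanned more than 1 on the log2 scale for 5 of the 20 (25%), beside 17.0% of all. The 7 neuron markers had a mean log2 level of 10.85 to 10.91 in the arrays of cluster B, above the 9.84 to 10.55 of cluster A and the 9.83 to 10.40 of cluster C, and none of the 7 was near 0. The neuron markers did not move as 1 list. Map2 had cluster means of 7.22, 9.30 and 7.15 in A, B and C, Syt1 11.01, 11.94 and 10.39, and Rbfox3 8.70, 9.24 and 8.18. Snap25, at 12.92, 13.33 and 13.34, and Stmn2, at 10.60, 11.39 and 11.45, were no higher in B than in C, and Tubb3, at 9.33, 9.32 and 8.94, was no higher in B than in A. Other marker lists also had means that differed between clusters. In A, B and C they were 8.08, 8.81 and 8.13 for forebrain, 10.53, 10.79 and 10.80 for oligodendrocytes and 6.34, 6.86 and 6.76 for choroid plexus. The forebrain and oligodendrocyte lists were mixed too. Camk2a (7.46, 10.33 and 6.91) and Ppp1r1b (8.27, 9.03 and 8.75) were highest in B. Tbr1 (8.56, 8.08 and 8.54) and Neurod6 (8.05, 7.78 and 8.33) were lowest there. Mag, Cnp and Mobp were lowest in A, whereas Ugt8a (9.34, 9.10 and 9.15) and Mog (7.60, 7.52 and 7.63) were lowest in B. Mbp was at 14.13, 14.13 and 14.23. The part of these markers in the cluster values was not tested. With the cluster as a block and the 4 lone arrays left out, the median difference over the 20 was 0.15 for clozapine, 0.08 for haloperidol and 0.07 between the drugs, and 0 were called in limma.

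**Figure D3:**
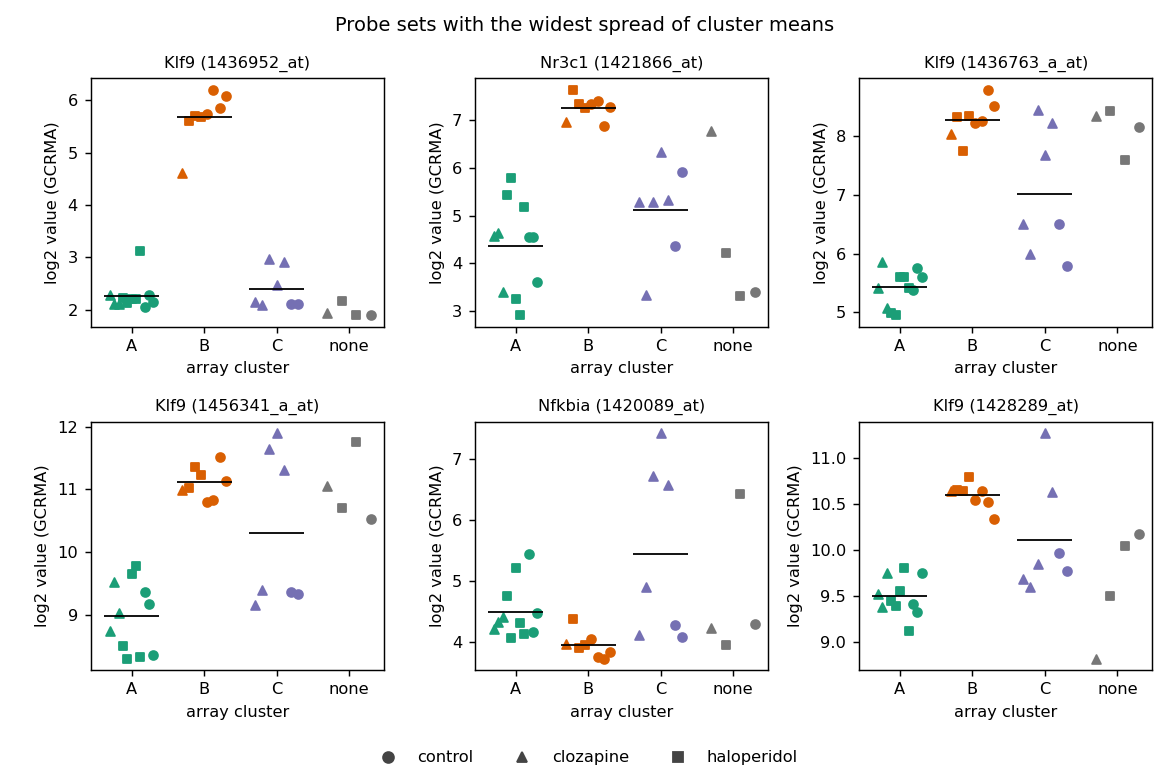
Log2 value of every array, by array cluster, for the 6 probe sets with the widest span of cluster means; marker shape gives the treatment, horizontal lines give cluster means, and arrays in no cluster are at the right. Klf9 1436952_at is at 4.60 or above in cluster B and at 3.12 or below in clusters A and C, and in cluster C the high values of Nfkbia 1420089_at are 3 clozapine arrays.

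If these genes rose and fell together from mouse to mouse, their levels should correlate across arrays of one cluster. Each gene was read here by its tested probe set with the highest mean, which for Nfkbia was 1420088_at. Over the 36 pairs of genes in each of the 3 clusters, 108 relations in all, 0 passed a Benjamini-Hochberg adjusted p of 0.05 by permutation test, and 18 had an unadjusted p under 0.05, of which 10 were in A, 2 in B and 6 in C. The median Pearson r was 0.29 in A, -0.01 in B and 0.23 in C, and 8 of 36 pairs were positive in all 3. Sgk1 and Nfkbia in cluster C had r = 0.961 and rho = 0.893 (exact permutation test, p = 0.00179 and 0.0123, adjusted 0.0799 and 0.190, n = 7), and r was 0.822 without the 2 arrays farthest from the median. In A and B the same pair had r of 0.271 and 0.110. Tsc22d3 and Klf9 in cluster B had r = 0.908 and rho = 0.952 (exact permutation test, p = 0.00181 and 0.00114, adjusted 0.0799 and 0.123, n = 8) and 0.861 without the 2 farthest arrays, against -0.493 in A and 0.134 in C. Ddit4 and Nfkbia had r = 0.827 and rho = 0.764 in cluster A (permutation test, p = 0.00222 and 0.00849, adjusted 0.0799 and 0.183, n = 11), which fell to 0.446 without the 2 farthest arrays, so that relation rests on those. In cluster B the same pair had r of -0.769, and in C 0.793. Differences in r between clusters were not tested.

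**Figure D4:**
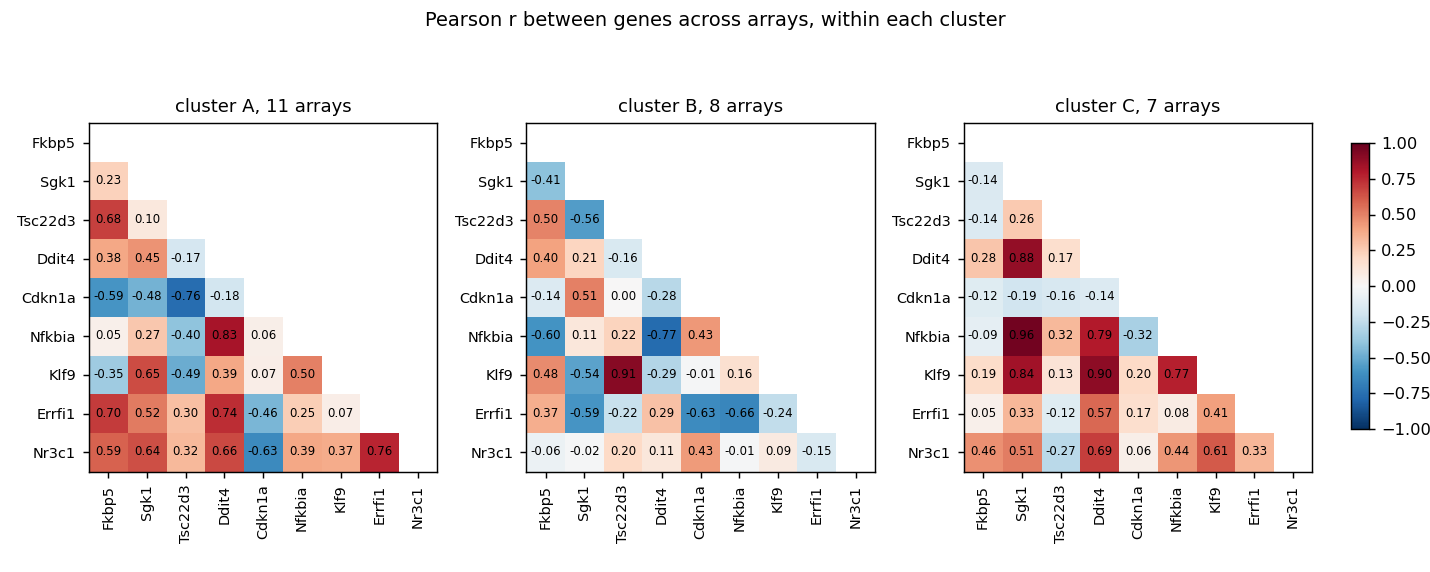
Pearson r between the 9 genes across the arrays of each cluster (11, 8 and 7 arrays), each gene by its tested probe set with the highest mean. Clusters A and C show 26 positive pairs of 36 each and cluster B 17, and none of the 108 values passed an adjusted p of 0.05.

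Probe sets of one gene were mostly positively correlated in clusters A and C and mixed in B. Over 21 pairs of probe sets of the same gene in 3 clusters, 63 relations, 0 passed the adjusted threshold by permutation test and 10 had an unadjusted p under 0.05. The median r was 0.33 in A, 0.06 in B and 0.50 in C, with 17, 12 and 20 of the 21 pairs positive, and 10 of the 21 were positive in all 3. Nfkbia 1420088_at, used for the pairs of genes, was not matched by every probe set of its gene. In A it had r of 0.555 with 1449731_s_at, 0.23 with 1420089_at and -0.65 with 1448306_at. In B these were -0.08, 0.28 and -0.15, and in C 0.82, 0.56 and 0.21.

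The probe sets of other genes most like each of these across arrays, by the mean of the Pearson r within the 3 clusters (11, 8 and 7 arrays), were picked from all tested probe sets and carry no test. They were Isca1 (0.848) and Bcl10 (0.795) for Fkbp5, Rab40b (0.880) and Casd1 (0.869) for Sgk1, and Peg3 (0.849) and Atp8a1 (0.802) for Tsc22d3. For Ddit4 they were Rnf6 (0.861) and Eef1e1 (0.855), for Cdkn1a Bcl11a (0.724) and Xbp1 (0.722), and for Nfkbia Zfp148 (0.813) and Abca1 (0.793). For Klf9 they were Sub1 (0.730) and Mpeg1 (0.719), for Errfi1 Msl1 (0.852) and Stau2 (0.816), and for Nr3c1 Cpox (0.833) and Sec22b (0.828). None of the 9 genes was among the nearest 2 of another.

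Other genes of the pathway were followed by 1 probe set each. Of 24 other glucocorticoid targets, 16 were tested and 0 called by limma in any comparison. With clozapine 11 were higher than control and 5 lower, with a median log2 difference of 0.15 beside 0.02 over all probe sets tested, and with haloperidol 14 were higher and 2 lower, with a median of 0.14 beside -0.03. The controls are shared, so these are not independent. The targets with the smallest unadjusted p for clozapine were Mt2, a metallothionein, at 0.39 ± 0.12 (SE, p = 0.00225), Per1, a clock repressor with a glucocorticoid response, at 0.67 ± 0.30 (SE, p = 0.0304), and Zbtb16, a zinc finger factor, at 0.22 ± 0.13 (SE, p = 0.0985), each with an adjusted p of 0.9998. For haloperidol they were Gpd1, a glycerol phosphate dehydrogenase, at 0.36 ± 0.19, Cebpb, a bZIP factor, at 0.22 ± 0.16, and Per1 at 0.41 ± 0.30 (SE). Between the drugs they were Mt2 at 0.23 ± 0.12, Gjb6, a connexin, at -0.52 ± 0.36, and Dusp1, a MAP kinase phosphatase, at -0.32 ± 0.22 (SE). Dusp1 differed from control by -0.19 ± 0.22 with clozapine and 0.13 ± 0.22 with haloperidol (SE).

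Of 15 chaperones, coregulators and hormone-handling genes of the receptor, 9 were tested and 0 called by limma, with 5 higher and 4 lower than control for each drug and medians of 0.02 for clozapine and 0.0013 for haloperidol. The smallest unadjusted p for clozapine were those of Crebbp, a histone acetyltransferase, at 0.22 ± 0.11, Dnaja1, an HSP40 co-chaperone, at 0.13 ± 0.21, and Stip1, which links HSP70 to HSP90, at 0.10 ± 0.16 (SE). For haloperidol they were Smarca4, a chromatin remodeller, at -0.17 ± 0.13, Hsp90aa1, an HSP90, at -0.11 ± 0.12, and Dnaja1 at -0.19 ± 0.21 (SE). Between the drugs they were Crebbp at 0.20 ± 0.11, Dnaja1 at 0.32 ± 0.21 and Smarca4 at 0.19 ± 0.13 (SE). Of 7 peptides and receptors of the stress axis, 3 were tested and 0 called by limma. Avp, the vasopressin precursor, differed from control by 0.70 ± 0.35 with clozapine and 0.21 ± 0.35 with haloperidol (SE), and by 0.49 ± 0.35 between the drugs. Crhr1, a receptor of corticotropin-releasing hormone, differed from control by -0.23 ± 0.17 with clozapine and -0.01 ± 0.17 with haloperidol, and Crhr2, the related receptor, by 0.05 ± 0.14 and -0.02 ± 0.14 (SE).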

How the data were processed

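Forebrain RNA of 30 mice was hybridized to 1 array each. The authors deposited log2 values, 1 for each probe set on each array. Per the submitters' processing notes the tool was GCRMA, and its version is not given in the sources used here. The deposited log2 values ran from 0.27 to 15.47, with array medians of 4.63 to 4.88, and were used without further normalization. The number of arrays limits the precision.

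Samples were grouped by their titles. Gene symbols came from the platform annotation, and 64 array controls were left out. A linear model was fitted by limma 3.58.1 under R 4.3.3 (functions lmFit, then eBayes; all 30 arrays, 27 residual degrees of freedom, two-sided) on probe sets with a mean of at least 4, with Benjamini-Hochberg adjustment and a threshold of 0.05. The fit was tested on simulated data. Clusters came from average linkage on 1 minus Pearson r, cut at 7. Correlations within clusters of at least 6 arrays used exact permutation tests, or 100000 permutations for 10 or more arrays, computed with numpy 2.4.6. Ranks for rho came from scipy 1.17.1. Motifs were searched in RefSeq promoter windows.

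Named were all probe sets of the 9 genes, the 3 genes with the smallest unadjusted p of each pathway list in a comparison, Per1 and Dusp1, and the 2 most similar probe sets for each gene. The 9 genes, the lists and the tests were chosen with earlier results of these data known. Alternatives covered the filter, quantile normalization, array weights, blocks for cluster, replicate number and range of numbers, and each range of numbers alone. They also covered an RNA quality covariate, left-out arrays and a single probe set for each gene.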

Additional observations from a re-analysis of the deposited data

Results flagged for a closer look

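Each probe set was checked in each group of 10 arrays for a lowest or highest array whose gap to its neighbour took up more of the group's range than Dixon's 95% critical value for 10. Of 75 groups, 11 had such an array, over 9 probe sets. The critical value allows about 1 in 20 for independent normal values. The share over all probe sets was not taken, so the count does not show an excess particular to these genes. Haloperidol 2, haloperidol 7 and control 1 had the lowest median correlations with their own group over all tested probe sets (0.843, 0.849 and 0.852). Among tested probe sets, Sgk1 1416041_at was high in haloperidol 7 (log2 value 9.49), Tsc22d3 1425281_a_at was low in control 1 (5.81), Errfi1 1419816_s_at was low in clozapine 6 (4.99) and Nr3c1 1460303_at was low in haloperidol 2 (7.71). Nfkbia 1420089_at was high in control 2 (5.45) and in haloperidol 7 (6.43). Among probe sets with a mean below 4, Fkbp5 1448231_at was low in control 1 (1.89) and haloperidol 7 (1.82), Cdkn1a 1421679_a_at was high in control 10 (2.03), Klf9 1436952_at was high in clozapine 1 (4.60), which is the only clozapine array of cluster B, and Klf9 1452723_at was high in clozapine 3 (2.79). Haloperidol 7 accounted for 3 of the 11, control 1 for 2, and 6 other arrays for 1 each.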

How the results depend on the processing

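The counts of called probe sets stayed at 0 in limma under all alternatives run except array weights, the cluster block and the numbers 7 to 10 alone. With array weights, clozapine against control gave 1731 called of 12944 and 1 of the 20, Nfkbia 1420089_at. With the cluster block, haloperidol against control gave 1 called of 12944 and 0 of the 20. Within the numbers 7 to 10, clozapine against control gave 1062 called and 1 of the 20, and clozapine against haloperidol 32 called and 0 of the 20; signs of 8, 9 and 7 of the 20 (clozapine against control, haloperidol against control, between the drugs) turned there, and 7, 3 and 5 within the numbers 1 to 6. The causes were not tested. With 1 array left out at a time, calls ranged from 0 to 0, and the median difference over the 20 ranged from -0.0030 to 0.07 for clozapine, -0.04 to 0.07 for haloperidol and -0.07 to 0.03 between the drugs. Of 60 differences of single probe sets, none of them called, 21 changed sign without some array. Signs of 8, 5 and 3 of the 20 (clozapine against control, haloperidol against control, between the drugs) turned with array weights, 4, 5 and 7 with the cluster block, and 3, 1 and 0 with quantile normalization. With the 3′ minus 5′ signal as a covariate, signs of 2, 1 and 2 turned, and 0 of the 20 moved by 1 SE or more in any comparison. Without clozapine 8, 9 and 10, chosen after seeing the data, the medians were -0.04 for clozapine and -0.16 between the drugs.

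The pairing by replicate number was mixed. Same-numbered pairs had r of their deviations from -0.50 to 0.80, above 0.1 in 17 of 30 and in all 3 pairs of groups for 4 of the 10 numbers (3, 5, 9 and 10). In 3 of the 30 pairs, all of number 5, the array correlated best with its own number in the other group. This was asked of control arrays for each drug and of clozapine arrays for haloperidol. Since not every pair was above 0.1, the numbers were not taken to pair the samples, and whether some of them share a batch was not tested. With the replicate number as a block, 0 probe sets were called, and the counts at an unadjusted p under 0.05 were 846, 540 and 642, beside 563, 298 and 406 without it; among the 20 they were 0, 1 and 1. No pair of genes was called with Spearman's rho, without the 2 farthest arrays, or with group-centred values, the last added after seeing the data. With 10 arrays a group, the median half-width of an interval was 1.28-fold.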
